A study of Mus musculus with 5 samples.

Results

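The genes described here encode the DNA replication machinery and 5 E2F transcription factors. They were chosen by name, as a list of 53 genes, and a gene was kept where the array held a probe set annotated to that gene alone. This left 52 of the 22180 genes with such a probe set, each represented by its probe set with the highest mean signal. Rfc4, a clamp loader subunit, was not analysed here because its probe set carries several symbols. The study measured gene expression in primary mouse embryonic fibroblasts (MEFs), cultured connective tissue cells, with an interest in compounds that the submitters group as AMPK inhibitors and consider for inflammatory disease driven by STING. In all 5 groups, vehicle included, the cells were STING-/- MEFs, which lack their own STING gene, and carried the R284S variant in its place. STING is the adaptor protein of cytosolic DNA sensing. Treatment lasted 9 hours. The compounds were Compound C, an inhibitor of AMPK and of BMP receptors, doxorubicin, a topoisomerase II poison, GSK 690693, an AKT inhibitor, and tofacitinib, a JAK inhibitor, and the fifth group had vehicle. Each group was 1 array, so no difference given here has an error or a test. The sources used here do not give doses, the way the variant was introduced, the number of embryos or any clonal selection. No group had wild-type STING or lacked the variant.

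Replication starts in G1, when the origin recognition complex, CDC6 and CDT1 load the MCM helicase onto origins. In S phase the kinase CDC7, MCM10, CDC45 and the GINS complex turn the loaded helicase into a moving fork. Polymerases, the sliding clamp PCNA and flap and nick processing enzymes then copy the DNA. E2F factors bind the promoters of many of these genes, with E2F1, E2F2 and E2F3 known as activators and E2F7 and E2F8 as repressors, and the retinoblastoma protein holds the activators in check until cyclin-dependent kinases release them. In an asynchronous fibroblast culture these transcripts are most abundant in cells at the G1/S boundary and in S phase, so the level measured in bulk RNA reflects both the share of such cells and the amount per cell, which cannot be told apart here.

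Values are the authors' log2 signals, and a difference is the log2 signal with a compound minus that with vehicle, so 1 unit is 2-fold. Genes were counted as higher or lower at 1.5-fold, a log2 difference of 0.585, among the 12317 genes whose signal reached the array median on at least 1 array. Of the 52 members, 51 did so. Dscc1, which loads PCNA in a variant clamp loader, did not, and read 4.05 with Compound C, 4.19 with doxorubicin, 4.5 with GSK 690693, 4.69 with tofacitinib and 4.39 with vehicle. The nearest pair of arrays over all genes, tofacitinib and GSK 690693, differed with a standard deviation of 0.258, and no replicate arrays exist to set a difference against. The 12 fibroblast markers examined all passed the filter, whereas 2 of 6 leukocyte, 3 of 4 epithelial and 2 of 4 endothelial markers did. Ptprc, Adgre1, Itgam, Cd3e, Epcam, Pecam1 and Tek were below it, and Cd68, Csf1r, Cdh1, Krt8, Krt18, Cdh5 and Kdr passed it. Cd68, a macrophage marker, read 6.88 with Compound C, 7.63 with doxorubicin, 6.65 with GSK 690693, 6.69 with tofacitinib and 6.56 with vehicle, which is 1.07 above vehicle with doxorubicin. The leukocyte list averaged 4.71 with Compound C, 4.94 with doxorubicin, 4.70 with GSK 690693, 4.71 with tofacitinib and 4.70 with vehicle, and the part of such cells in the results was not tested. The mean log2 signal of the fibroblast list was 10.05 with Compound C, 10.32 with doxorubicin, 10.17 with GSK 690693, 10.16 with tofacitinib and 10.09 with vehicle. Sting1, the gene of STING itself, had signals of 5.07 to 5.25 over the 5 arrays, below the filter, which checks neither the deletion nor the variant.

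In the median, replication and E2F transcripts were below vehicle for Compound C and doxorubicin, and above it for tofacitinib and, by less, GSK 690693. Many members differed little from vehicle. Those within 0.3 of it numbered 39 of 51 for GSK 690693, 32 for Compound C, 26 for doxorubicin and 24 for tofacitinib. The share of all genes within 0.3 was not computed, so these counts are not read as a result about the members. With Compound C, 9 of 51 members were at least 1.5-fold lower, against 9.99% of all genes, and 1 was at least 1.5-fold higher, against 6.06%. Their median difference was -0.17, against -0.02 over all genes. By any amount, 35 members read below vehicle, against 52.2% of all genes, and 3 were at least 2-fold lower (Prim1, Pola2 and Tipin), against 2.52%. The Compound C median was -0.28 when the median of the other 4 arrays took the place of vehicle. A filter at a log2 signal of 7 left 5 lower members among 37, against 11.2% of all genes at that filter, so the members were then closer to the background. With doxorubicin, 10 of 51 were lower, against 14.2% of all genes, and 0 were higher, against 11.5%, with a median of -0.12 for the members and 0.05 for all genes. The members' share of lower genes with doxorubicin, 19.6%, was thus not far from the background. Of the 10, 8 were at least 2-fold lower, against 6.45% of all genes. By any amount, 31 members read below vehicle with doxorubicin, against 45.1% of all genes, and 26 lay within 0.3 of it.

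With tofacitinib the differences were almost all on the higher side. Of 51 members, 47 read above vehicle by some amount, against 62.7% of all genes, and 6 were at least 1.5-fold higher, against 2.66%. Of the 6, Gins1 passed the filter on low signal through the tofacitinib array only. A filter at a log2 signal of 7 leaves Gins1 out. With it, 4 of 37 members were at least 1.5-fold higher, against 2.48% of all genes. None of the 51 was at least 1.5-fold lower, against 2.0% of all genes. The median difference of the 51 was 0.36, against 0.09 over all genes. The size depends on scaling, since centring the arrays on the tested genes put the median of all genes at -0.08 and left 2 members at least 1.5-fold higher, and centring on all single-symbol probe sets left 13. Centred on the tested genes, 40 members read above vehicle, against 37.0% of all genes. Such centring shifts members and all genes alike, with the members' median 0.27 above that of all genes. After quantile normalization the members' median was 0.231 above it, and 2 members were at least 1.5-fold higher. With GSK 690693, 37 members read above vehicle, against 55.2% of all genes, and the median was 0.14, against 0.04. Only E2f8 was at least 1.5-fold lower with GSK 690693, against 3.21% of all genes, and Cdt1 and Fen1 were at least 1.5-fold higher, against 2.40%, a split of 1 lower and 2 higher that became 1 lower and 0 higher after quantile normalization. Because all 4 compounds were set against the same vehicle array, a low or high vehicle value enters all 4 differences of a gene alike.

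**Figure D1:**
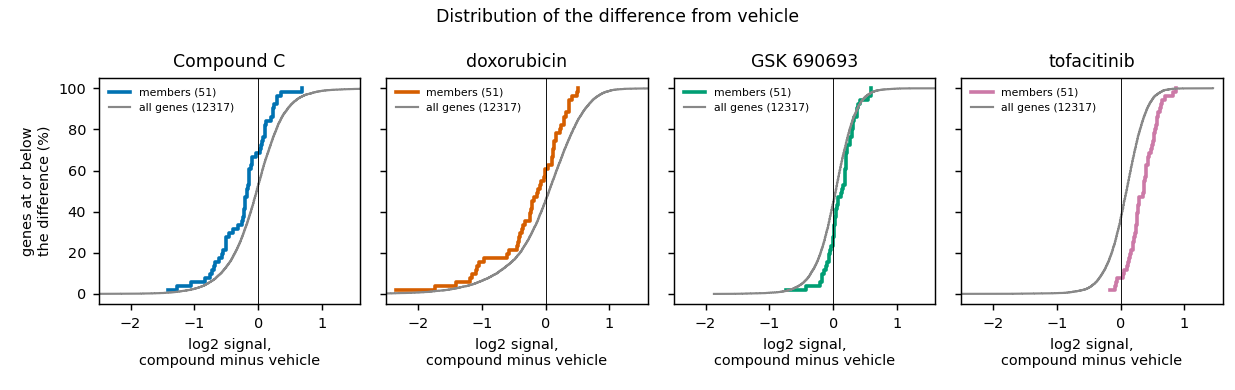
Cumulative share of genes (vertical axis, percent) at or below a given log2 difference from vehicle (horizontal axis) for the 51 tested members (thick coloured line) and all 12317 tested genes (thin grey line), with 1 panel per compound and 1 array per group. At the median, the members lie left of all genes with Compound C (-0.17) and doxorubicin (-0.12) and right of them with GSK 690693 (0.14) and tofacitinib (0.36).

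The order of the 5 arrays within each gene needs no vehicle as reference. It does depend on the scale of the arrays, and the tofacitinib array had the highest median over the tested genes, 7.39, against 7.22 with vehicle. The tofacitinib array was the highest of the 5 for 38 of 51 members, against 18.8% of all genes, and the lowest for 0, against 11.8%. The Compound C array was the lowest for 27 members, against 29.8% of all genes. The doxorubicin array was the lowest for 17, against 25.9%, and the highest for 4 members, against 36.7%. The Compound C array was the highest for 4 (Cdc7, E2f7, Gins3 and Mcm7), against 19.1%. The GSK 690693 array was the lowest for Mcm7, Prim2 and Tyms, against 15.6% of all genes, and the highest for Cdt1, E2f2 and Timeless, against 15%. Vehicle was lowest for Fen1, Gins1, Lig1 and Mcm5, against 19.1% of all genes, and highest for E2f8 and Tk1, against 12.8%. Over the 5 arrays a member spanned 0.73 in the median, against 0.64 over all genes, and 16 members spanned at least 2-fold, against 20.5% of all genes.

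The comparisons of Compound C and of doxorubicin share the vehicle array. The members at least 1.5-fold below vehicle with Compound C were Brca1, Cdc45, Clspn, Mcm10, Pola2, Prim1, Rrm2, Tipin and Tk1. With doxorubicin they were Cdc6, Cdc7, Cdt1, Clspn, Dtl, E2f3, E2f8, Exo1, Gins3 and Mcm10. Clspn and Mcm10 appear with both compounds. The share of all genes lower with both was not computed, so the size of this overlap is not read as a result.

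Because many of these genes are textbook E2F targets, the RefSeq promoters (build GRCm38.p6) were read for E2F motif matches in the 250 bases before each start site. The motif was searched as its 4 forms TTTGGCGC, TTTGCCGC, TTTCGCGC and TTTCCCGC on both strands. At the Mcm5 site and at the longer Mcm6 site a form on each strand overlaps the other, so the run of capitals is longer there. A promoter entry was found for 42 of the 52 members, 7 of which have more than 1 start site. A match lay before a start of 12 of the 42 members (28.6%), against 3.91% of the 9718 tested genes with an entry and 2.16% of all 27025 genes of the table. The sites, which show where the motif lies in each gene, are written with 10 bases on either side, or up to the start site, 5′ to 3′ along the gene's strand with the motif in capitals.
Cdc6 (chr11:98908003-98908030, + strand): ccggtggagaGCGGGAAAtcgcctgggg
Gins3 (chr8:95633508-95633535, + strand): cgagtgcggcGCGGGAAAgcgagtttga
Dtl (chr1:191575545-191575562, - strand): gtgacgtcagTTTGGCGC
E2f3 (chr13:29986064-29986084, - strand): tgaaaagccgGCGGGAAAtct
E2f7 (chr10:110745231-110745258, + strand): ccgcgtccccGCGGGAAAcgctcccgcg
Mcm5 (chr8:75109346-75109377, + strand): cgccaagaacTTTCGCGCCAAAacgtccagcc
Mcm6 (chr1:128359794-128359825, - strand): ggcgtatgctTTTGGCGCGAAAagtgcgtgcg
Mcm6 (chr1:128359735-128359762, - strand): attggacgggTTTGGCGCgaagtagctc
Mcm7 (chr5:138172031-138172058, - strand): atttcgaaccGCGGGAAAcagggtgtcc
Orc1 (chr4:108579417-108579444, + strand): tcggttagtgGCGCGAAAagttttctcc
Pola1 (chrX:93632276-93632303, - strand): tcatcacaggGCGCCAAAtgcactcccg
Rfc3 (chr5:151651209-151651228, - strand): cgtcgcacgcTTTCGCGCtc
Uhrf1 (chr17:56304118-56304145, + strand): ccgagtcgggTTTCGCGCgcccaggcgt

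Of the 9 members with an entry that were at least 1.5-fold lower with doxorubicin, 4 held a match (Cdc6, Dtl, E2f3 and Gins3), against 8 of the 33 others (24.2%). Of the 8 such members with Compound C, 0 held a match, against 12 of the 34 others (35.3%). These are counts of letters in a short window and say nothing of binding. The CCAAT box, the letters CCAAT on either strand, lay in the window of 27 of the 42 members (64.3%), against 40.1% of tested genes. The upstream sequences of 3 members that recur in the results are given in full, with E2F motif forms and CCAAT letters in capitals. E2f8 had the largest difference with doxorubicin and Prim1 that with Compound C, and neither holds an E2F form in the window. Mcm6, at least 1.5-fold higher with tofacitinib, holds E2F forms at 2 places.
E2f8 (chr7:48881597-48881846, - strand): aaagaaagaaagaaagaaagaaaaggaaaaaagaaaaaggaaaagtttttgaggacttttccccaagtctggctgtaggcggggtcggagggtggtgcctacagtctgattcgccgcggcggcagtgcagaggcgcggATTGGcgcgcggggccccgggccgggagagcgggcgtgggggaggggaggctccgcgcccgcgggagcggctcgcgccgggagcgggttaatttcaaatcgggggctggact
Prim1 (chr10:128014965-128015214, + strand): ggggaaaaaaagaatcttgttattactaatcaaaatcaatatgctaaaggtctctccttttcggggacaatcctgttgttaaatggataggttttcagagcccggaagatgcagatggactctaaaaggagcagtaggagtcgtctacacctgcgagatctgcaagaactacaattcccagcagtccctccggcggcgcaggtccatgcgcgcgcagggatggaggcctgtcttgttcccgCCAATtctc
Mcm6 (chr1:128359706-128359955, - strand): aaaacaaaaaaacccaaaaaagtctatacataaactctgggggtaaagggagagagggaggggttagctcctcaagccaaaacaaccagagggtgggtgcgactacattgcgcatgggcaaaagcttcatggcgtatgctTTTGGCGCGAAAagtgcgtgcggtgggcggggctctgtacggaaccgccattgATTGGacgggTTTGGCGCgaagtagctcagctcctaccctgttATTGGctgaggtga

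**Figure D2:**
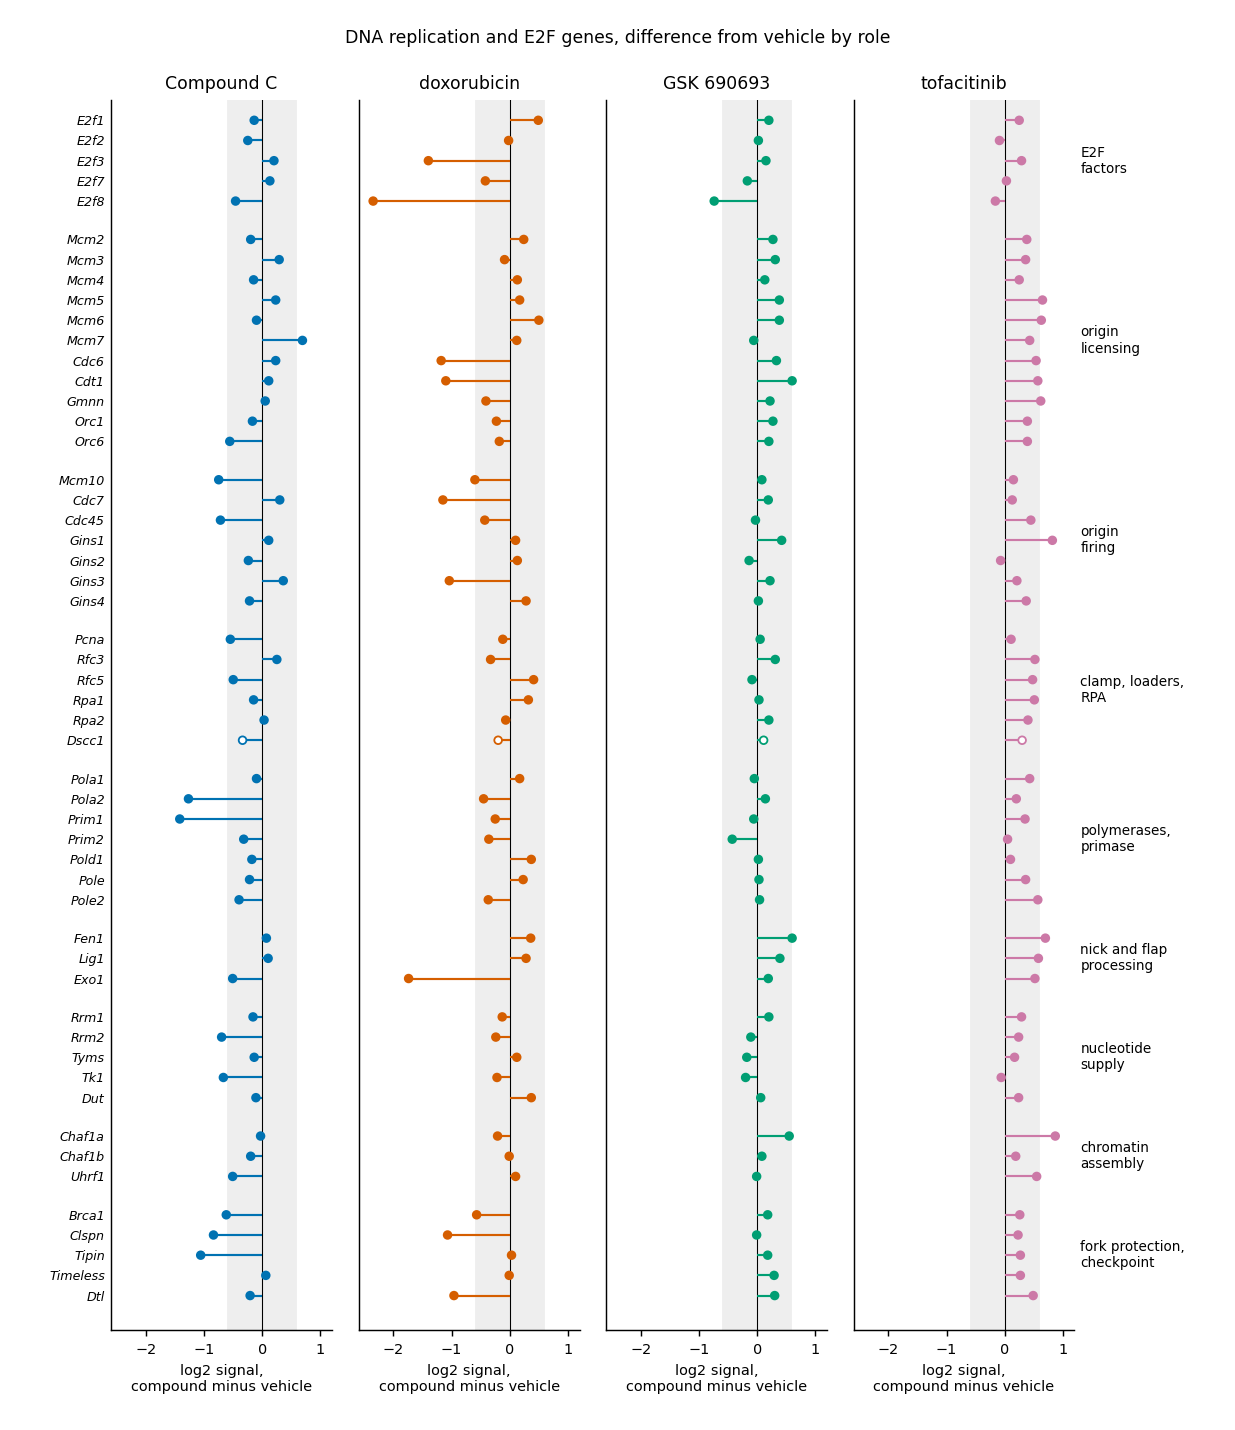
Log2 difference from vehicle (horizontal axis) for the 52 members (rows, grouped by role), with 1 panel per compound and 1 array per group. Filled points passed the filter on low signal, the open point is Dscc1, and the grey band spans 1.5-fold either way. With doxorubicin most members lie inside the band and a few far to the left, E2f8 at -2.35, and with tofacitinib 47 of the 51 filled points lie right of 0.

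Among the E2F factors, the transcripts of the repressor E2F8 and the activator E2F3 were far lower with doxorubicin. E2f8 read 7.61 with Compound C, 5.72 with doxorubicin, 7.33 with GSK 690693, 7.91 with tofacitinib and 8.07 with vehicle. It was highest with vehicle and stood out with doxorubicin, 5.1-fold below vehicle (log2 -2.35), and it was the lowest member against vehicle with GSK 690693 as well, at -0.74, or -0.43 against the median of the other 4 arrays. E2f3 read 7.73, 6.13, 7.68 and 7.82 with Compound C, doxorubicin, GSK 690693 and tofacitinib, against 7.53 with vehicle. Only the doxorubicin array was below vehicle, by 2.64-fold. E2f1, an activator, read 7.49, 8.12, 7.83 and 7.88 with the same compounds, against 7.63 with vehicle, and its highest value, with doxorubicin, was short of 1.5-fold above vehicle. E2f7, the other repressor, was at -0.42 with doxorubicin, and E2f2 lay within 0.25 of vehicle with each compound.

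Of the 11 origin licensing genes, Cdc6 and Cdt1 were at least 1.5-fold lower with doxorubicin (18.2%, against 14.2% of all genes). Cdc6, whose product loads MCM2-7 together with ORC, read 7.23 with Compound C, 5.82 with doxorubicin, 7.33 with GSK 690693, 7.54 with tofacitinib and 7.0 with vehicle. Cdt1, which brings the helicase to the origin, read 7.44, 6.23, 7.93 and 7.90 in the same order of compounds, against 7.33 with vehicle. Both genes were thus below vehicle on the doxorubicin array only, at -1.18 and -1.10, and above it on the other 3. The 6 subunit genes of the helicase lay between -0.09 (Mcm3) and 0.50 (Mcm6) with doxorubicin, 5 of them above vehicle, against 54.0% of all genes. Gmnn, which encodes the CDT1 inhibitor geminin, was at -0.41, and the ORC subunit genes Orc1 and Orc6 were at -0.23 and -0.18.

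With tofacitinib all 11 licensing genes read above vehicle, against 62.7% of all genes. They were above it by 0.25 (Mcm4) to 0.65 (Mcm5), with Mcm6 at 0.63 and Gmnn at 0.62. Mcm5 read 7.94 with Compound C, 7.88 with doxorubicin, 8.09 with GSK 690693, 8.36 with tofacitinib and 7.71 with vehicle. Its 4 compound arrays all lay above vehicle, which was thus the lowest of the 5. Gmnn read 5.89, 5.43, 6.06 and 6.46 in the same order of compounds, against 5.84 with vehicle, with doxorubicin alone below vehicle. With GSK 690693, 10 of the 11 licensing genes read above vehicle, against 55.2% of all genes. Cdt1 was highest at 0.60, and Mcm7 was the exception at -0.06. Compound C gave a mixed result. Mcm7 read 8.81 with Compound C, 8.24 with doxorubicin, 8.06 with GSK 690693, 8.55 with tofacitinib and 8.12 with vehicle. It was the only member at least 1.5-fold higher with Compound C (0.69), while Orc6 was at -0.56 and Mcm2, Mcm4 and Mcm6 lay between -0.20 and -0.10. The annotation also holds 2 probe sets that carry Mcm7 beside other symbols, which were not analysed.

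**Figure D3:**
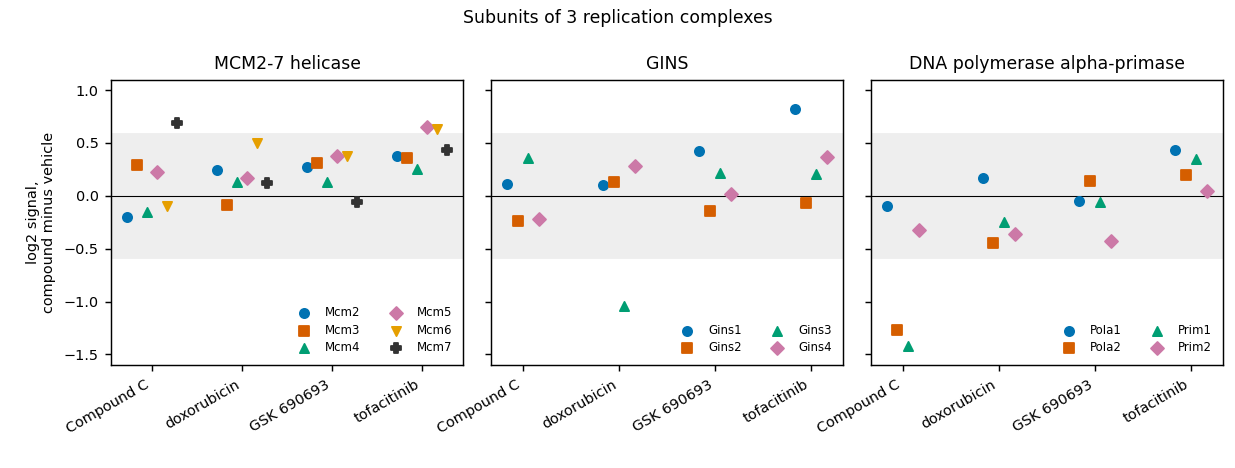
Log2 difference from vehicle (vertical axis) for each subunit gene of the MCM2-7 helicase, the GINS complex and DNA polymerase alpha-primase, by compound (horizontal axis), with 1 array per group and a grey band at 1.5-fold. Gins3 stands alone at -1.04 with doxorubicin, and Pola2 and Prim1 stand apart from Pola1 and Prim2 with Compound C.

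Genes of origin firing also differed within a complex. GINS is a tetramer that travels with the helicase, and of its 4 genes Gins3 read 7.72 with Compound C, 6.32 with doxorubicin, 7.58 with GSK 690693, 7.57 with tofacitinib and 7.36 with vehicle. It was thus -1.04 from vehicle with doxorubicin, whereas Gins1, Gins2 and Gins4 were at 0.10, 0.13 and 0.28. Cdc7, the kinase that activates loaded MCM, read 6.17, 4.72, 6.06 and 6.0 with the same compounds, against 5.87 with vehicle, and it too was below vehicle on the doxorubicin array alone, at -1.15. Mcm10, a fork assembly factor, was lower with Compound C (-0.75) and with doxorubicin (-0.60). It read 5.77 with Compound C, 5.92 with doxorubicin, 6.6 with GSK 690693, 6.67 with tofacitinib and 6.52 with vehicle. Cdc45, which joins MCM and GINS in the active helicase, read 5.44, 5.73, 6.13 and 6.61 in the same order, against 6.16 with vehicle. Both genes had their 2 lowest values with Compound C and doxorubicin and their highest with tofacitinib.

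Gins1 had the second largest difference with tofacitinib. It read 4.78 with Compound C, 4.77 with doxorubicin, 5.09 with GSK 690693, 5.49 with tofacitinib and 4.67 with vehicle. The gene passed the filter on the tofacitinib array only, so its presence among the tested members depends on that array, and its difference of 0.82 is one between low signals.

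Among the members, the 2 largest differences with Compound C were in Prim1 and Pola2 of DNA polymerase alpha-primase, the enzyme that lays down the RNA-DNA primers of each new strand. Prim1, the catalytic primase subunit, read 5.94 with Compound C, 7.11 with doxorubicin, 7.30 with GSK 690693, 7.71 with tofacitinib and 7.36 with vehicle, and was 2.68-fold below vehicle with Compound C. Pola2, the accessory subunit of the polymerase, read 7.10, 7.92, 8.51 and 8.57 in the same order of compounds, against 8.37 with vehicle, a 2.41-fold difference with Compound C. The Compound C array was the lowest of the 5 for both genes. The partners Pola1 (polymerase catalytic subunit) and Prim2 (large primase subunit) were at -0.10 and -0.32 with Compound C. All 7 polymerase and primase genes read below vehicle with Compound C, against 52.2% of all genes. All 7 read above vehicle with tofacitinib, against 62.7% of all genes, and Pole2, a subunit of the leading-strand polymerase epsilon, was highest at 0.57. With doxorubicin the 7 genes ranged from -0.45 (Pola2) to 0.37 (Pold1, the lagging-strand polymerase delta). With doxorubicin 0 of them reached 1.5-fold, against 14.2% of all genes lower and 11.5% higher.

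The 5 tested members among the sliding clamp, clamp loader and RPA genes did not reach 1.5-fold with any compound. Among all genes the largest share past 1.5-fold in either direction was 14.2%, lower with doxorubicin. A count of 0 among 5 genes is therefore not read as a result. Pcna, the clamp itself and the member with the highest mean signal, read 9.48 with Compound C, 9.91 with doxorubicin, 10.08 with GSK 690693, 10.14 with tofacitinib and 10.03 with vehicle. Its lowest value was with Compound C, at -0.55. Rfc5, a clamp loader subunit, read 6.47, 7.38, 6.88 and 7.45 with the same compounds, against 6.97 with vehicle, so Compound C was at -0.50 and doxorubicin and tofacitinib were at 0.41 and 0.48. The single-strand binding genes Rpa1 and Rpa2 read above vehicle with tofacitinib by 0.51 and 0.40, and Rfc3, another clamp loader subunit, by 0.52. The other probe set of Rpa1, at 3.59 to 4.14 over the arrays, was at -0.20 with tofacitinib.

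Among nick and flap enzymes, the nuclease gene Exo1 was the second lowest member with doxorubicin. It read 6.18 with Compound C, 4.95 with doxorubicin, 6.88 with GSK 690693, 7.21 with tofacitinib and 6.69 with vehicle, which is 3.34-fold lower with doxorubicin than with vehicle. Fen1, the flap endonuclease of lagging strand maturation, read 6.57, 6.86, 7.10 and 7.20 in the same order of compounds, against 6.5 with vehicle. All 4 compound arrays lay above vehicle for Fen1, by 0.60 with GSK 690693 and 0.70 with tofacitinib, and on its other probe set, which was at 0.73 with Compound C, by 0.53 and 0.29. Lig1, the ligase that seals the nicks, also read above vehicle with each compound, most with tofacitinib at 0.58.

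Of the 5 nucleotide supply genes, Rrm2 and Tk1 lay 1.5-fold or more below vehicle with Compound C, and 0 passed 1.5-fold in either direction with the other compounds. Rrm2, the regulated subunit of ribonucleotide reductase, read 8.58 with Compound C, 9.04 with doxorubicin, 9.17 with GSK 690693, 9.52 with tofacitinib and 9.28 with vehicle, a difference of -0.70 with Compound C. Its other probe set, at 3.20 to 3.47 over the arrays, was at -0.03. Tk1, thymidine kinase, read 6.55, 7.0, 7.02 and 7.16 in the same order of compounds, against 7.22 with vehicle, and was lowest with Compound C (-0.67). Rrm1, the large subunit of the reductase and the member with the second highest mean signal, read 9.28, 9.31, 9.64 and 9.73, against 9.44 with vehicle. Its 5 values spanned less than 1.5-fold. Rrm1, Tyms (thymidylate synthase) and Dut (dUTPase) lay within 0.16 of vehicle with Compound C and within 0.37 with doxorubicin.

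The chromatin assembly gene Chaf1a had the largest difference with tofacitinib. It encodes the large subunit of CAF-1, which deposits histones behind the fork, and it read 6.10 with Compound C, 5.92 with doxorubicin, 6.68 with GSK 690693, 7.0 with tofacitinib and 6.13 with vehicle. Tofacitinib was 1.83-fold above vehicle and GSK 690693 was 0.55 above it, while Compound C and doxorubicin were at or below it. Its partner gene Chaf1b, of another CAF-1 subunit, was at 0.19 with tofacitinib. Uhrf1, which recruits the maintenance DNA methyltransferase to new DNA, read 6.98, 7.59, 7.48 and 8.04 with the same compounds, against 7.49 with vehicle, so tofacitinib was at 0.55 and Compound C at -0.51.

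Among fork protection and checkpoint genes, Clspn was lower with both Compound C and doxorubicin. It encodes claspin, which carries the replication checkpoint signal to CHK1, and it read 5.81 with Compound C, 5.58 with doxorubicin, 6.64 with GSK 690693, 6.88 with tofacitinib and 6.65 with vehicle. It was thus at -0.84 with Compound C and -1.07 with doxorubicin, and within 0.23 of vehicle with GSK 690693 and tofacitinib. Tipin, of the TIMELESS-TIPIN complex that steadies the fork, read 6.55, 7.64, 7.79 and 7.88 in the same order of compounds, against 7.61 with vehicle. Only Compound C was below vehicle, by 2.08-fold, and the partner gene Timeless lay within 0.06 of vehicle with Compound C. Dtl, the adaptor of the ubiquitin ligase that destroys CDT1 on PCNA, read 7.61, 6.86, 8.12 and 8.31 with the same compounds, against 7.82 with vehicle, and was at -0.96 with doxorubicin. Brca1, a recombination and fork protection gene, read 5.13 with Compound C and 5.18 with doxorubicin, 5.93 with GSK 690693, 6.01 with tofacitinib and 5.75 with vehicle. It was at -0.62 with Compound C and, just short of 1.5-fold, at -0.57 with doxorubicin.

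**Figure D4:**
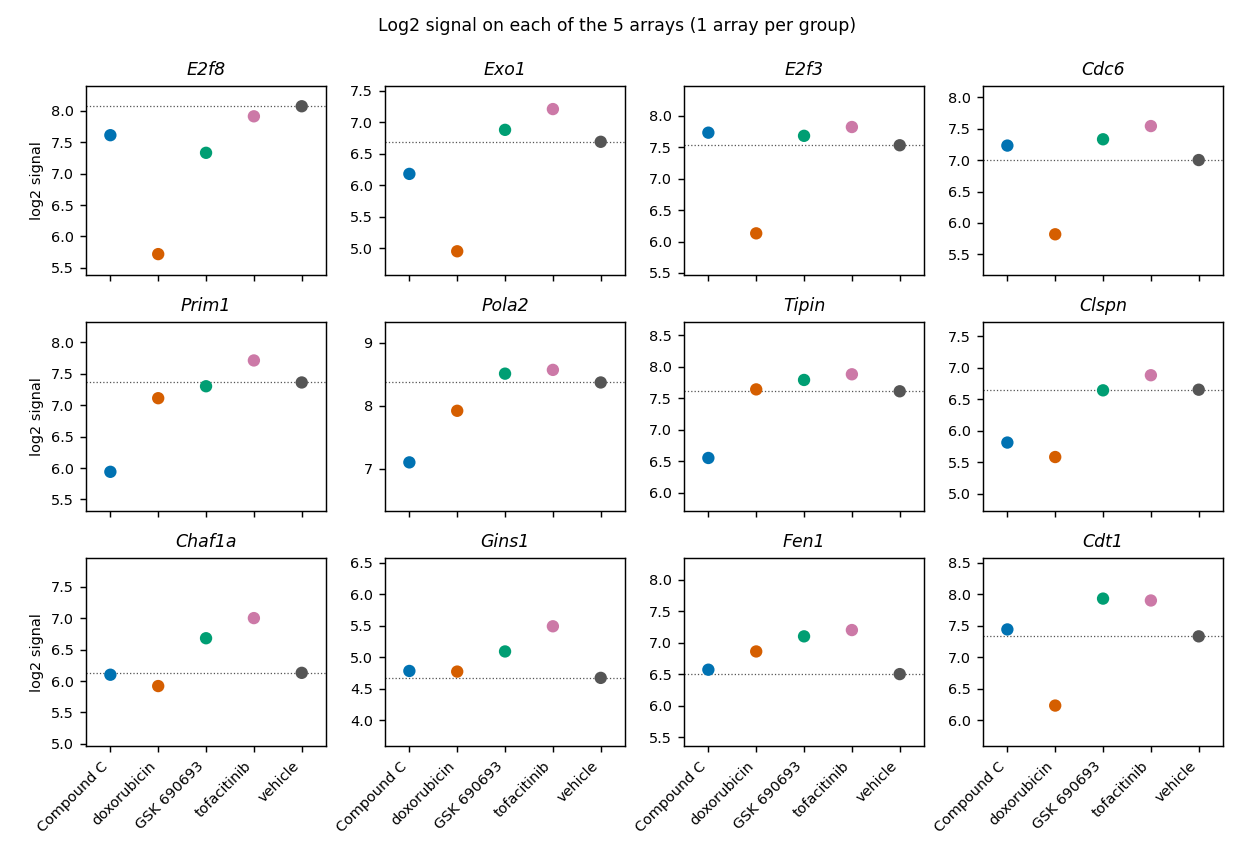
Log2 signal (vertical axis, a 3-unit window in each panel) of 12 members on the 5 arrays (horizontal axis), 1 point per array, with the vehicle value as a dotted line. E2f8, Exo1, E2f3, Cdc6 and Cdt1 are lowest on the doxorubicin array, Prim1, Pola2 and Tipin on the Compound C array, and Chaf1a, Gins1 and Fen1 are highest on the tofacitinib array.

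A direct comparison of doxorubicin with Compound C leaves out the vehicle array. Of 51 members, 8 were at least 1.5-fold lower with doxorubicin than with Compound C, against 14.9% of all genes, and 7 were at least 1.5-fold higher, against 15.4%. Both shares were near the background, and the median was 0.18 for members and 0.13 for all genes, or 0.04 and 0.13 when a gene's probe sets were averaged. The lower end was E2f8 (-1.89), E2f3 (-1.6) and Cdc7 (-1.45), and the higher end was Prim1, at 1.17. In the comparison of tofacitinib with GSK 690693, which shares no array with the preceding one, 46 members read higher with tofacitinib, against 56.6% of all genes. The median was 0.19, against 0.04, or 0.09 against -0.06 with the arrays centred on the tested genes. With that centring 35 members read higher with tofacitinib, against 38.8% of all genes. No member reached 1.5-fold in either direction, against 2.31% of all genes higher and 1.14% lower, and the furthest apart were E2f8 (0.58), Rfc5 (0.57) and Uhrf1 (0.56).

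Other replication and cell cycle genes, outside the 53, were described from 4 further lists. The first, of other replisome and chromatin replication genes, had 37 tested, with a median of -0.31 with Compound C. Of these, 9 lay at least 1.5-fold below vehicle (24.3%, against 9.99% of all genes) and 0 as far above it (against 6.06%). The lowest were the fork scaffold gene Wdhd1 (-1.06), the histone chaperone gene Nasp (-0.99) and the helicase gene Mcm8 (-0.96). With doxorubicin the median was -0.19, and 9 were at least 1.5-fold lower (24.3%, against 14.2% of all genes), among them the firing factor gene Ticrr (-1.19), the PCNA unloader gene Atad5 (-1.13) and Slbp, whose product binds histone mRNA (-1.08). Rpa3, the small RPA subunit (0.79), and the clamp loader gene Rfc2 (0.65) were the 2 higher with doxorubicin (5.41%, against 11.5%). With tofacitinib the median was 0.24, and 31 of the 37 read above vehicle, against 62.7% of all genes. Rpa3 (0.68) and Rfc2 (0.62) were highest. With GSK 690693 the median was 0.06, with 0 lower and 0 higher, against 3.21% and 2.40% of all genes. Ticrr was furthest from vehicle there, at -0.50.

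Among 24 tested genes of the RB-E2F and G1/S regulators, doxorubicin gave 7 lower and 3 higher, namely the CDK inhibitor gene Cdkn1c and the cyclin D genes Ccnd1 and Ccnd3, at 0.72, 0.67 and 0.66. The lower genes were 29.2% of the list, against 14.2% of all genes, and the higher ones 12.5%, against 11.5%, a share near the background. Myc, a growth transcription factor, was lowest at -3.09, followed by the phosphatase gene Cdc25a (-1.49), which activates CDK2, and Fbxo5 (-1.14), which encodes an inhibitor of the APC/C. Compound C gave 3 lower, Myc (-1.05), the cyclin E gene Ccne1 (-0.63) and the RB relative Rbl1 (-0.61), and 1 higher, Rb1, at 0.60, shares of 12.5% and 4.17% against 9.99% and 6.06% of all genes. Rb1, Cdkn1c, Ccnd1, Ccnd3 and Atm, which falls in the next list, were named after their values were seen. The CDK inhibitor gene Cdkn1b was the only gene of this list past 1.5-fold with GSK 690693, at 0.63. That is 4.17% higher, against 2.40% of all genes, and 0 lower, against 3.21%. Cdkn1a, another CDK inhibitor gene, was at -0.47. With tofacitinib Fbxo5 (0.65) and Ccne1 (0.60) were higher and 0 were lower.

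Of 17 tested checkpoint and recombination genes, 6 were lower with Compound C (35.3%, against 9.99% of all genes), led by the ubiquitin ligase gene Rad18 (-1.46) and the recombination gene Brca2 (-1.02). With doxorubicin 7 were lower (41.2%, against 14.2% of all genes) and 1 higher (5.88%, against 11.5%), the checkpoint kinase gene Atm, at 0.75. The CDK-inhibiting kinase gene Wee1 was at -2.65 with doxorubicin, a 6.28-fold difference. With tofacitinib 16 of the 17 read above vehicle, against 62.7% of all genes. The checkpoint kinase gene Atr (0.87), the mismatch repair gene Msh6 (0.81) and Chek2 (0.68) were at least 1.5-fold higher (17.6%, against 2.66%). With GSK 690693 0 passed 1.5-fold in either direction, against 3.21% of all genes lower and 2.40% higher, and the median was 0.02.

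Mitosis genes, which peak later in the cycle, lay below vehicle throughout with Compound C. All 33 tested mitosis genes were below vehicle, against 52.2% of all genes, and 14 were at least 1.5-fold lower (42.4%, against 9.99%). Their median was -0.50, against -0.17 for the members. With doxorubicin 9 of 33 were at least 1.5-fold lower (27.3%, against 14.2% of all genes) and 0 higher (against 11.5%). The doxorubicin median was -0.38, and cyclin A2 (Ccna2, -1.83) and the kinesin gene Kif20b (-1.79) were lowest. With tofacitinib the mitosis median was 0.28 and 29 of 33 read above vehicle, against 62.7% of all genes. The spindle checkpoint gene Bub1b was highest with tofacitinib, at 0.61. With GSK 690693 the median was 0.00, and the proliferation marker gene Mki67 was furthest from vehicle at -0.52.

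**Figure D5:**
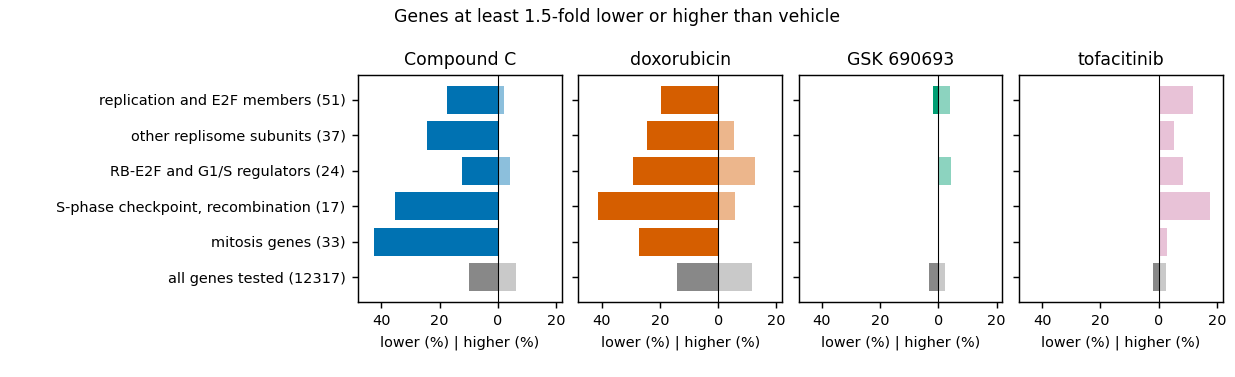
Percent of tested genes at least 1.5-fold below vehicle (left of 0, full colour) or above it (right of 0, pale) for the members, 4 further gene lists and all tested genes (rows, number of genes in parentheses), with 1 panel per compound and 1 array per group. With Compound C the mitosis bar extends to 42.4% lower, against 17.6% for the members and 9.99% for all genes.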

How the data were processed

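Total RNA, 300 ng per sample, was labelled with a whole-transcript kit and hybridised to Affymetrix arrays, 1 per group, per the labels' protocols. The values deposited by the authors are log2 signals, 1 for each probe set on each array, made with Affymetrix Expression Console 1.3.1.187 per the submitters' processing notes. Not given in the sources used here: how signals were summarised, background corrected and normalised. The log base was inferred from the values. If a quantile step was used, a shift of most genes in 1 direction would have been removed before deposit. The table held 41345 probe sets, of which 23521 carried 1 gene symbol in the platform annotation. Genes with several probe sets were represented by the one with the highest mean, and 5 members have 2. A gene entered the counts if its signal on any array reached that array's median over single-symbol probe sets, 5.37 to 5.44.

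Differences, counts and medians were computed in Python 3.11.15 with pandas 2.3.3, and quantile normalization with limma 3.58.1. The counting was tested on simulated data. There is no test, since each group is 1 array, and the number of arrays limits the precision. Members and lists were chosen with earlier results of these data known. Every member may be named. Values on all 5 arrays are given for the 3 members furthest apart in each comparison and for others that a statement rests on, and genes of other lists are named where they are among the 3 furthest from vehicle. Alternatives were another centring, quantile normalization, the other 4 arrays' median in place of vehicle, the mean over probe sets, no filter and a filter at a log2 signal of 7. Promoters are those of RefSeq, build GRCm38.p6. Probe sets have no coordinates in the sources used here.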

Additional observations from a re-analysis of the deposited data

How the results depend on the processing

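Of 120 recomputed counts and medians over the members, 104 stayed within 1.5 times the reported count or 0.1 of the reported median, and 16 moved further. Of the medians, 0 reversed in sign, whereas a count has no sign and could not reverse. The cause of the moves was not tested. The tofacitinib values depend most on scaling. The count at least 1.5-fold above vehicle, 6 as reported, was 13 after centring on all single-symbol probe sets, 2 after quantile normalization and 2 after centring on the tested genes, a setting chosen after seeing the data, and the median of 0.36 became 0.26 and 0.19 under the last 2. That last centring moved the median of all genes with tofacitinib from 0.09 to -0.08, and as a constant per array it cannot change the 0.27 between the members' median and that of all genes, which was 0.231 after quantile normalization. For tofacitinib against GSK 690693, the same centring gave a median of 0.09, and centring on all single-symbol probe sets gave 1 member at least 1.5-fold higher. The GSK 690693 count of 2 higher members was 0 with quantile normalization, with the other 4 arrays as reference and with centring on the tested genes, and 1 with the mean over probe sets, and the 1 lower member, E2f8, became 0 with the other 4 arrays as reference (-0.43). With that reference the Compound C median was -0.28. A filter at a log2 signal of 7 left 37 members, 5 of them lower with Compound C, against 11.2% of all genes at that filter. The median of doxorubicin against Compound C was 0.04 with the mean over probe sets and 0.28 with that filter. Of 60 recomputed differences of single members, 0 reversed and 2 moved by 0.258 or more, the standard deviation of the nearest pair of arrays. These were E2f8 with GSK 690693, as given, and with doxorubicin, at -2.04 with the other 4 arrays as reference. Smaller moves could still cross 1.5-fold. Fen1 with tofacitinib was 0.552 with quantile normalization and 0.485 with the other 4 arrays as reference. Cdt1 with GSK 690693 was 0.546 and 0.545 in the same settings. No paired analysis was possible because each group is 1 array. No detection call was used, so whether dim signals such as Gins1 lie above background is unknown.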
